A study of Mus musculus with 5 samples.

Results

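Interferon-high tumour epithelial cells are the cells of PyMT mouse mammary tumours that carry both an epithelial transcriptome and a strong interferon signature. A cell was called epithelial where Krt8, Krt18 and Epcam together made up at least 15 of every 10000 unique molecular identifiers (UMIs, each a count of 1 captured transcript). Its interferon score was the mean of log1p(UMIs per 10000) over Ifit1, Ifit3, Isg15, Irf7, Oasl2 and Usp18, and a cell was called interferon-high where that score lay above the 95th percentile of the epithelial cells of its own library. This gave 550 interferon-high cells among 10959 epithelial cells and 15958 cells in all. By library they numbered 70, 72, 149, 127 and 132, in the order used for every list of values by library: fresh 10x 1, fresh 10x 2, stored 10x, BD 1 and BD 2. Because the percentile was taken within each library, the share of interferon-high cells is fixed by the rule and is no result.

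All groups share the PyMT background, in which the polyoma virus middle T antigen drives mammary tumours. The sources used here give no strain, age, transgene promoter or pooling of animals. The series compared single-cell platforms: the 10x Chromium 3' v2 system, which captures cells in droplets, and BD Rhapsody with its whole transcriptome assay, which captures them in microwells. The libraries are 2 of fresh tumour digest on 10x, 1 of digest stored for 24 h on 10x, and 2 on BD Rhapsody. BD 1 is labelled fresh, whereas BD 2 is titled fresh but its matrix is named for 24 h, so no storage state was assumed for it. Nothing in the labels says that the libraries came from separate animals, and p-values then measure only the spread between libraries. Libraries on the same platform shared at most 5 cell barcodes on 10x and 24 on BD Rhapsody. Median UMIs per cell ran from 8926 to 12474 over all cells of a library, and total UMIs from 29166129 to 59957945.

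Type I interferons are secreted proteins that bind the receptor made of Ifnar1 and Ifnar2. The receptor's kinases Jak1 and Tyk2 activate a transcription complex that includes Stat2 and Irf9, which enters the nucleus and binds interferon-stimulated response elements in the promoters of its target genes. The targets include RNA sensors, effectors that block viral replication, the ubiquitin-like protein Isg15 and the antigen presentation machinery of MHC class I. Type II interferon, Ifng, acts through another receptor, and its targets, such as the guanylate-binding proteins and immunity-related GTPases, overlap with those of type I. Which interferon, if any, acted on these cells was not tested.

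The core of the response element is GAAA, any 2 bases (NN) and GAAA, read on either strand. The 200 bases upstream of the annotated start are printed for 2 of the genes that chose the cells (Ifit1 and Isg15), for 3 effector genes outside the rule with large differences (Ifit3b, Rsad2 and Oas3) and for B2m, the light chain of MHC class I, as examples of genes in the results that follow whose windows hold a match. Sequences are from RefSeq on GRCm38.p6, 5′ to 3′ on the strand of the gene, with the element core in capitals, in that form or as its reverse complement (TTTC, NN, TTTC).
Ifit1, chr19:34640689-34640888, plus strand: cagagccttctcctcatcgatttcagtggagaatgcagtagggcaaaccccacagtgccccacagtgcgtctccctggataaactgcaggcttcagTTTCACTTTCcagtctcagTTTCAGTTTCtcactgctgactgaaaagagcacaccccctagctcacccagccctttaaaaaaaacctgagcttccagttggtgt
Isg15, chr4:156200819-156201018, minus strand: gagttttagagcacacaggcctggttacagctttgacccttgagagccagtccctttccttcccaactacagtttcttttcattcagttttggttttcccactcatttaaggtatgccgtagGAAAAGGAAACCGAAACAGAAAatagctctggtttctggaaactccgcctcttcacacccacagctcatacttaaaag
Ifit3b, chr19:34607757-34607956, plus strand: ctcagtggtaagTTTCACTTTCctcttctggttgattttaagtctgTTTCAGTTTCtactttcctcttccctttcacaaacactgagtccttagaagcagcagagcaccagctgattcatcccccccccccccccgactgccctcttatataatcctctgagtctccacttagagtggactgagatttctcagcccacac
Rsad2, chr12:26456453-26456652, minus strand: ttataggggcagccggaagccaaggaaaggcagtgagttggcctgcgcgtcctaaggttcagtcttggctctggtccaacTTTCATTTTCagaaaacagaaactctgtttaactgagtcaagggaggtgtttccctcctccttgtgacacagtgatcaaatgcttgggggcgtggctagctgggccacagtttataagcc
Oas3, chr5:120777660-120777859, minus strand: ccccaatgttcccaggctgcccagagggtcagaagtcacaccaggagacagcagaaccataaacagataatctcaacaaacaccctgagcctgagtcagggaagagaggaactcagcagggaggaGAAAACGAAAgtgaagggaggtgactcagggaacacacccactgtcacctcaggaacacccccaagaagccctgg
B2m, chr2:122147487-122147686, plus strand: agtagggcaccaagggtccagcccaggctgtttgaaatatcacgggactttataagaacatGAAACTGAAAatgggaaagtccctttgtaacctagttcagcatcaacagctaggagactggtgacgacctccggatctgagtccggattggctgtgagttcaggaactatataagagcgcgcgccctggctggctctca
Isg15 holds 3 overlapping matches, Ifit1 and Ifit3b hold 2 each, and the other promoters shown hold 1. The windows of the rule genes Irf7 and Oasl2 hold no match, nor do those of Ifi44, Oasl1, Irf9, H2-K1, Tap1 and Psmb8, which rose as well. A missing match says only that these letters are not in the 300 bases searched (250 before the start and 50 after). Of all 32851 RefSeq promoter windows of that length, 3.44% hold a match on either strand. A match describes the sequence and is no evidence of binding in these cells.

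The rule genes themselves describe the cells and carry no test. Isg15 stood at 10.8, 15.1, 7.37, 5.76 and 5.30 UMIs per 10000 in interferon-high cells and at 0.365, 0.765, 0.195, 0.139 and 0.103 in the other epithelial cells. Irf7, the transcription factor that amplifies interferon production, stood at 6.23, 5.82, 5.75, 4.48 and 3.57 against 0.365, 0.528, 0.299, 0.218 and 0.145. Ifit1, which binds viral RNA caps, stood at 2.75, 5.47, 2.18, 3.45 and 3.17 against 0.0547, 0.173, 0.0345, 0.0347 and 0.0269. Of each of these 3 genes the level in every library's interferon-high cells lay above that of all 5 sets of other epithelial cells. The level in interferon-high cells ran from 0.475 to 2.41 UMIs per 10000 for Ifit3, from 1.40 to 3.98 for Oasl2 and from 0.785 to 1.91 for Usp18, the protease that removes Isg15 from proteins.

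To give each rule gene a value that its own UMIs did not choose, the cells were also picked by the remaining 5 genes. The left-out gene was then higher in the picked cells in every library: 22.8- to 77.7-fold for Ifit1, 74.1- to 333-fold for Ifit3, 17.7- to 37.2-fold for Isg15, 9.33- to 20.6-fold for Irf7, 21.5- to 46.6-fold for Oasl2 and 23.02- to 68.0-fold for Usp18. Most of the interferon-high cells carried several rule genes at once. The score over these genes favours this, so the counts describe the cells and are no separate result. At least 4 of the 6 were detected in 78.6%, 98.6%, 71.1%, 81.1% and 73.5% of interferon-high cells, and all 6 in 16, 33, 28, 31 and 25 cells. The median interferon-high cell held 23.5, 35, 21, 20 and 16 UMIs of the 6 genes, and the fewest in any was 1, in fresh 10x 1. The median other epithelial cell held 0 in each library.

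The score at the threshold was 0.668, 1.11, 0.600, 0.591 and 0.512. Library by library, the 10 cells just inside it scored 0.671 to 0.735, 1.11 to 1.19, 0.601 to 0.627, 0.593 to 0.631 and 0.516 to 0.556. The 10 just outside it scored 0.632 to 0.667, 1.07 to 1.11, 0.568 to 0.599, 0.549 to 0.586 and 0.478 to 0.510. Within 0.1 of the threshold lay 32, 31, 57, 54 and 46 epithelial cells, so the class is a range of a per-cell score.

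Fresh 10x 2 had the highest threshold and also the highest level of the rule genes over its whole epithelium. Summed over all epithelial cells, the 6 genes made up 2.83 UMIs per 10000 in fresh 10x 2 (exact Poisson 95% interval 2.77 to 2.90, counting error only). The other libraries had 1.85 (1.80 to 1.91) in fresh 10x 1, 1.46 (1.43 to 1.495) in stored 10x, 1.34 (1.31 to 1.38) in BD 1 and 1.12 (1.08 to 1.15) in BD 2. After each cell was thinned to 3000 UMIs, at least 3 rule genes were detected in 7.60% of the epithelial cells of fresh 10x 2 (exact binomial 95% interval 6.23 to 9.17). In the same order, the share was 3.29% (2.39 to 4.41), 2.92% (2.30 to 3.66), 2.73% (2.13 to 3.45) and 3.13% (2.48 to 3.88) in the other libraries. Thinning left out 90, 115, 440, 3 and 107 shallower cells, and without it the shares were 11.03%, 17.5%, 8.25%, 9.45% and 5.998%. The intervals of the summed levels did not overlap between any of the 5 libraries. Of the thinned shares, that of fresh 10x 2 lay above the intervals of the other 4 libraries, which overlapped one another. Interferon-high cells held 55.4%, 43.9%, 61.4%, 63.6% and 69.2% of the epithelial UMIs of the 6 genes.

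**Figure D1:**
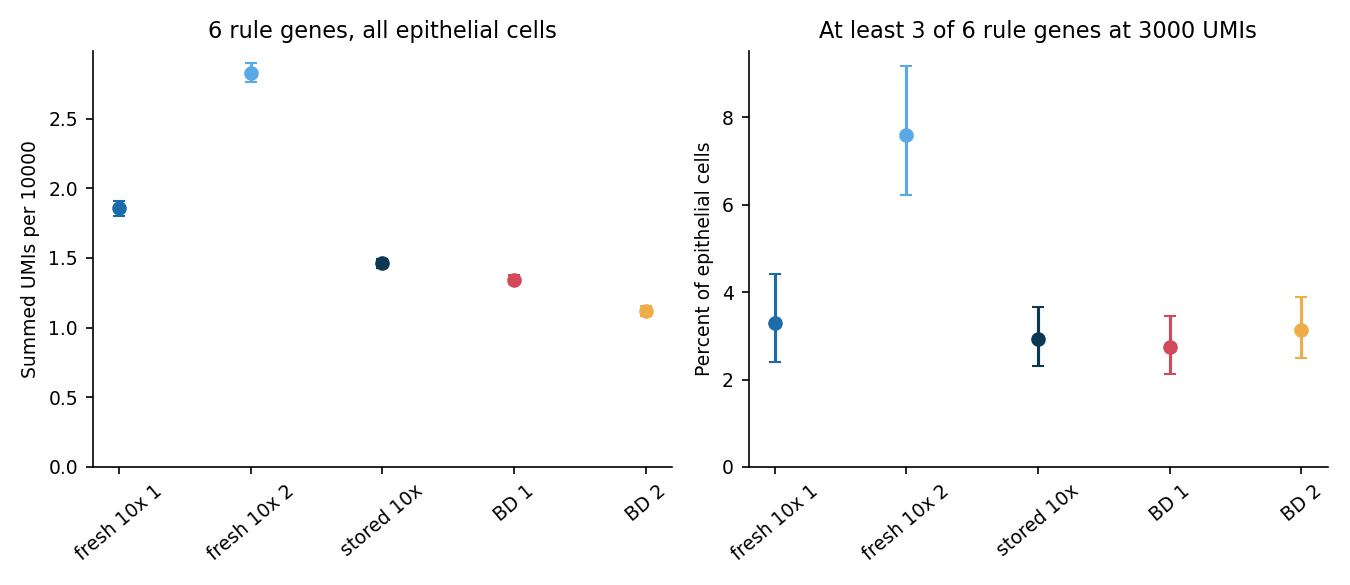
Left, summed UMIs per 10000 of the 6 rule genes over all epithelial cells of each library, with exact Poisson 95% intervals. Right, percent of epithelial cells with at least 3 of the 6 genes after thinning to 3000 UMIs, with exact binomial 95% intervals. Fresh 10x 2 is highest in both, at 2.83 per 10000 and 7.60%.

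The comparison with the other 10409 epithelial cells of the same libraries asks which further genes move with the interferon score. Raw UMIs were summed per library over each set of cells and tested with edgeR's quasi-likelihood test with the library as a block. The 6 rule genes were not tested. Of 12625 genes, 886 were higher (7.02%) and 1046 lower (8.29%) in interferon-high cells at an adjusted p under 0.05, and 1757 of these 1932 (15.3% of the genes tested) had the same direction in all 5 libraries. For lower genes this means that no library was higher, so a library without a difference would count. Of those called, 235 rose and 226 fell by at least 1 on the log2 scale, and the median over all genes tested was -0.02. Fewer genes were called at an epithelial gate of 30 per 10000 (466 higher and 357 lower) and in cells of 5000 to 20000 UMIs (431 and 223). Without stored 10x, 680 genes were lower. The shares over all genes tested are the background for the counts of each list below, and no test of a list against them is given.

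Antiviral effectors were higher almost throughout. Of 46 genes listed, 42 passed the filter on low counts, 39 were higher and 0 lower, with a median log2 fold change of 2.71. With no filter, 40 of 45 were higher. Rsad2, or viperin, which makes a chain-terminating nucleotide, stood at 0.700, 1.08, 0.589, 1.07 and 0.798 UMIs per 10000 in interferon-high cells and at 0.00744, 0.0512, 0.00789, 0.0106 and 0.00869 in the others. The sets did not overlap, and the log2 fold change was 5.96 ± 0.28 SE, adjusted p = 1.43e-08. Ifi44, another interferon-induced gene, stood at 1.81, 2.26, 1.37, 3.54 and 3.09 against 0.131, 0.185, 0.0787, 0.186 and 0.151, without overlap (4.09 ± 0.10 SE, adjusted p = 7.57e-11). Mx1, a dynamin-like GTPase that traps viral nucleocapsids, stood at 0.126, 0.610, 0.109, 0.160 and 0.152 against 0.00175, 0.0121, 0.00113, 0.00307 and 0.00319. Its level in fresh 10x 2 was the highest of the 5, and the sets did not overlap (5.87 ± 0.28 SE, adjusted p = 1.98e-08). Bst2, or tetherin, which holds budding virions at the membrane, stood at 6.17, 5.86, 3.44, 1.88 and 1.64 against 0.590, 0.770, 0.295, 0.144 and 0.111 (3.52 ± 0.11 SE, adjusted p = 5.19e-10). Ifitm3, which blocks virus entry from endosomes, stood at 21.5, 27.3, 20.3, 18.7 and 16.1 against 3.74, 5.13, 3.05, 2.76 and 2.14 (2.72 ± 0.07 SE, adjusted p = 7.57e-11).

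The largest fold change of the tested genes was that of Ifit3b, 7.53 ± 0.19 SE, adjusted p = 7.57e-11, from 1.04, 1.33, 0.484, 1.07 and 0.893 against 0.00350, 0.0117, 0.00383, 0.00591 and 0.00203 UMIs per 10000. Ifit3b is a near copy of the rule gene Ifit3, and reads may be split between them, so its value is uncertain and is not independent of the rule. Trim30a (4.79), Ifi27l2a (4.68), Ifit1bl2 (4.65) and Ddx60 (4.35) were also among the effectors that rose, on the log2 scale. Only Slfn9 (0.04), Plac8 (0.43) and Ifitm1 (-0.62) of the tested effectors did not pass.

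Sensors of foreign nucleic acid and the oligoadenylate synthetases rose in the same cells. Of 27 listed genes present in the files, 22 were tested, 16 were higher and 0 lower, with a median of 2.32 on the log2 scale. Oas2, an oligoadenylate synthetase, stood at 0.272, 0.652, 0.279, 0.606 and 0.520 UMIs per 10000 against 0.0114, 0.0331, 0.0108, 0.0187 and 0.0139, without overlap (4.82 ± 0.18 SE, adjusted p = 1.43e-09). Oas3 rose by 6.57 and Oasl1 by 4.73. Oas1g (3.91) has near-identical relatives and its value is uncertain. The RNA helicase sensors Ddx58, which encodes RIG-I, and Ifih1, which encodes MDA5, rose by 2.36 and 2.27. Ddx58 stood at 0.777, 1.13, 0.763, 1.36 and 1.44 against 0.213, 0.216, 0.174, 0.262 and 0.220. Zbp1, a sensor of Z-form nucleic acid, rose by 2.75. The adaptors downstream of the sensors did not pass: Mavs stood at a log2 fold change of 0.10 ± 0.24 SE, adjusted p = 0.843 and Tmem173, which encodes STING, at 0.12 ± 0.14 SE, adjusted p = 0.646.

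All 4 genes of the Isg15 conjugation list were higher. Ube2l6, the conjugating enzyme, stood at 0.165, 0.279, 0.131, 0.502 and 0.437 UMIs per 10000 against 0.0131, 0.0218, 0.0180, 0.0329 and 0.0214 (3.78 ± 0.23 SE, adjusted p = 2.32e-07). Herc6, the ligase in mice, rose by 3.13, Uba7, the activating enzyme, by 1.94, and Trim25 by 1.11.

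The guanylate-binding proteins and immunity-related GTPases showed the highest median of any list. Of 19 genes listed, 11 passed the filter and all 11 were higher, with a median of 3.71. With no filter on low counts, all 19 were tested, 15 were higher and 1 lower. Iigp1, a GTPase that disrupts vacuoles of intracellular pathogens, stood at 2.25, 3.69, 1.92, 3.29 and 2.65 against 0.193, 0.185, 0.174, 0.195 and 0.146 UMIs per 10000, without overlap (3.97 ± 0.13 SE, adjusted p = 5.42e-10). Igtp, of the same family, stood at 0.622, 1.39, 0.942, 1.49584 and 1.05 against 0.0683, 0.0996, 0.0787, 0.0830 and 0.0762 (3.79 ± 0.12 SE, adjusted p = 5.41e-10). Gbp3 rose by 4.34 and Gbp9 by 4.00. Gbp6 was called at 4.73 although it had 0 UMIs in the interferon-high cells of fresh 10x 1. The Gbp genes are close paralogs, and the split of reads between them is uncertain.

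**Figure D2:**
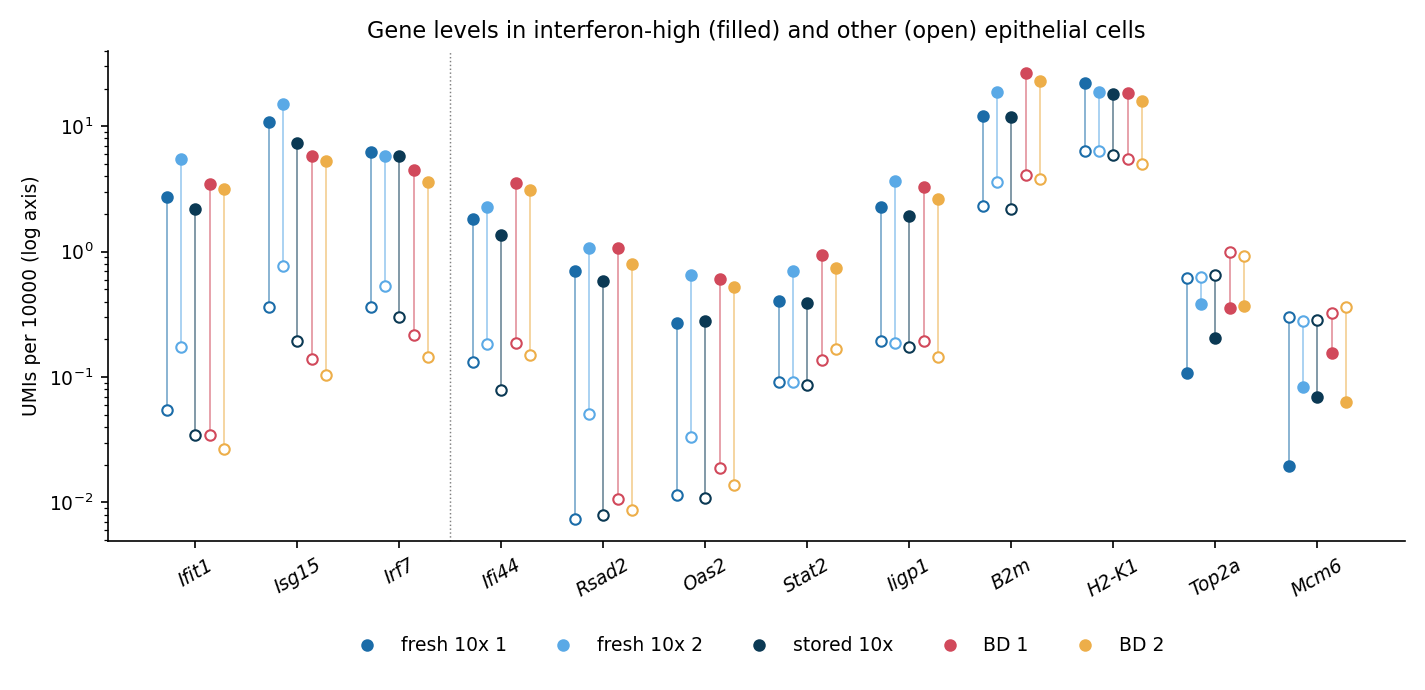
UMIs per 10000 (log axis) of 12 genes, with a filled point for the interferon-high cells and an open point for the other epithelial cells of each library. The 3 genes left of the dotted line chose the cells. Ifi44, Rsad2, Oas2, Stat2, Iigp1, B2m and H2-K1 are higher in interferon-high cells in every library, and Top2a and Mcm6 are lower in every library.

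Within the signalling pathway, Stat2 and Irf9 of the transcription complex rose while the receptors and kinases did not pass the test. Of 20 tested genes, 6 were higher and 0 lower, with a median of 0.12. Stat2 stood at 0.408, 0.703, 0.392, 0.947 and 0.735 UMIs per 10000 in interferon-high cells and at 0.0915, 0.0915, 0.0870, 0.137 and 0.168 in the others, without overlap (2.49 ± 0.14 SE, adjusted p = 1e-07). Irf9 stood at 0.884, 1.04, 0.811, 2.06 and 2.01 against 0.309, 0.372, 0.298, 0.616 and 0.574 (1.66 ± 0.08 SE, adjusted p = 1.4e-08). Socs1, a feedback inhibitor of the kinases, was called at 1.01 ± 0.27 SE, adjusted p = 0.0226, and lost the call without fresh 10x 1 (adjusted p = 0.113) and without BD 2 (adjusted p = 0.0617). Irf2 (0.59) and Irf1 (0.50) rose by less. The receptor chain Ifnar1 stood at 0.0874, 0.0931, 0.179, 0.0932 and 0.0824 against 0.108, 0.136, 0.155, 0.141 and 0.130 (-0.26 ± 0.18 SE, adjusted p = 0.382) and Ifnar2 at 0.428, 0.279, 0.414, 0.295 and 0.228 against 0.375, 0.371, 0.385, 0.239 and 0.249 (0.09 ± 0.11 SE, adjusted p = 0.653). Jak1 was at 0.12, Tyk2 at 0.09 and Stat3, which serves other cytokines, at 0.06 on the log2 scale, and none of these passed.

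Transcripts of the interferons themselves were scarce. The 21 interferon genes listed had 4 UMIs in all interferon-high cells, all of Ifnk, and 95 in the other epithelial cells. Per 10000 UMIs this was 0.00513 against 0.00563, a ratio of 0.911 with an exact 95% interval of 0.243 to 2.41 for counting error only. Ifnb1 had 0 UMIs in the 550 cells, which allows a share of up to 0.545% of cells with a UMI. Of the other epithelial cells 7, or 0.0672%, held an Ifnb1 UMI, a share below that limit, so a difference was not detectable at this depth. The remaining cells of the tumours held 151 Ifnb1 UMIs. Ifng had 0 UMIs in interferon-high cells, 6 in other epithelial cells and 77 in the remaining cells.

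The MHC class I pathway, which presents peptides from the cell's own proteins to cytotoxic T cells, rose across its steps. Of 24 genes listed, 23 were tested, 19 were higher and 0 lower, with a median of 1.27. B2m, the invariant light chain, stood at 12.2, 18.6, 11.9, 26.6 and 22.9 UMIs per 10000 in interferon-high cells and at 2.30, 3.61, 2.19, 4.12 and 3.81 in the others, without overlap (2.55 ± 0.06 SE, adjusted p = 6.91e-11). The classical heavy chains H2-K1 and H2-D1 stood at 21.9983, 18.7, 18.1, 18.5 and 15.8 against 6.30, 6.33, 5.89, 5.47 and 4.98 (1.73 ± 0.05 SE, adjusted p = 3.36e-10) and at 29.1, 24.4, 20.0, 26.9 and 23.4 against 8.72, 8.65, 6.70, 8.66 and 7.99 (1.65 ± 0.05 SE, adjusted p = 3.36e-10). The heavy chain genes are paralogs, and their reads may be split between them. Tap1, of the peptide transporter, stood at 0.884, 1.12, 0.828, 0.564 and 0.659 against 0.200048, 0.201, 0.179, 0.133 and 0.124 (2.31 ± 0.09 SE, adjusted p = 3.09e-09). The immunoproteasome subunits Psmb8 and Psmb9 rose by 2.06 and 2.11. Nlrc5, the transactivator of class I genes, rose by 3.34 from 46 UMIs in interferon-high cells. H2-Q7, a non-classical heavy chain, rose by 2.67. The general chaperones of the endoplasmic reticulum that also serve class I loading did not pass: Calr was at -0.13, Canx at -0.12 and Pdia3 at -0.09.

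MHC class II, which presents peptides on antigen-presenting cells, showed 1 call among 7 tested genes, beside 15.3% called over all genes tested. H2-DMb1 was at 0.80 ± 0.22 SE, adjusted p = 0.0262, and lost the call in 4 of the 5 fits that left out a library. Cd74 stood at 0.0777, 0.114, 0.475, 0.166 and 1.17 against 0.146, 0.620, 0.386, 0.526 and 0.483 UMIs per 10000 (-0.13 ± 0.37 SE, adjusted p = 0.871), and H2-Ab1 at 0.15 ± 0.46 SE, adjusted p = 0.885. In interferon-high cells both were highest in BD 2, at 1.17 and 1.08, and the sets overlapped. Without BD 2, 0 genes of the list were higher and 2 lower.

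**Figure D3:**
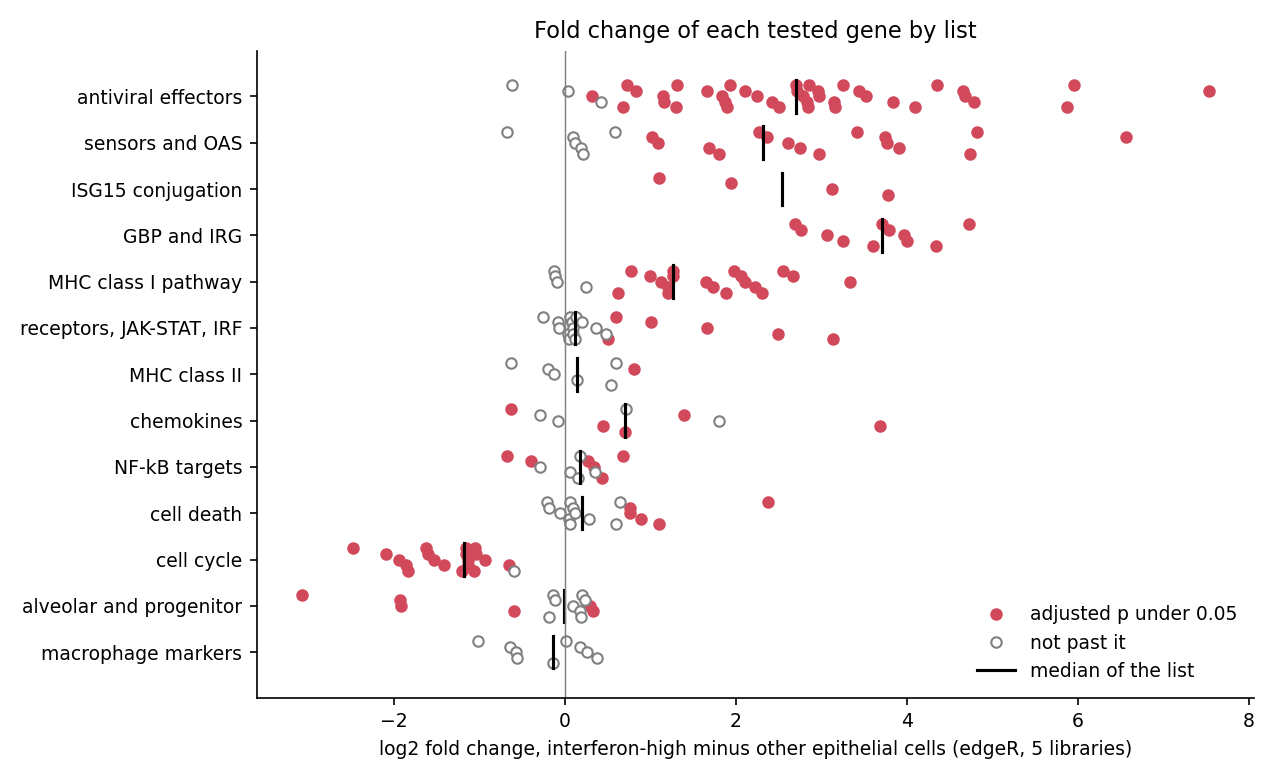
Log2 fold change of every tested gene of 13 lists, interferon-high minus other epithelial cells, with filled points for an adjusted p under 0.05 and a bar at the median of the list. Antiviral effectors, sensors, Isg15 conjugation, GTPases and MHC class I have medians right of 0, at 2.71, 2.32, 2.54, 3.71 and 1.27. Cell-cycle genes all lie to the left, with a median of -1.18.

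Chemokines moved in both directions. Of 9 tested, 4 were higher and 1 lower. With edgeR, 0 of 4 were higher in cells with no UMI of the 6 immune lists, 0 of 6 with the neutrophil list left out of these, and 1 of 9 without the library block. Ccl5, which attracts T cells, was called at 3.69 ± 0.53 SE, adjusted p = 0.000524, but its 110 UMIs lay in 12 interferon-high cells, with at least 90% of those of BD 1 in 1 cell. With only the top 2.5% of cells by score the call was lost (adjusted p = 0.294). Ccl7 was at 1.40, Cxcl16 at 0.70 and Cx3cl1 at 0.45, and Cx3cl1 was not called in 4 of the 5 fits that left out a library. Ccl7 was at 0.83 and not called (adjusted p = 0.204) in cells with under 10 fibroblast-marker UMIs per 10000. Cxcl10, a widely used interferon marker, stood at 0.622, 0.0103, 0.0174, 0.0104 and 0.0317 UMIs per 10000 against 0.00919, 0.0464, 0.0223, 0.0111 and 0.0151. In fresh 10x 1, all 64 UMIs of the interferon-high cells lay in 1 cell. It did not pass (1.80 ± 0.95 SE, adjusted p = 0.245), and without fresh 10x 1 it was at -0.16. Cxcl2, a neutrophil attractant, was lower (-0.63 ± 0.14 SE, adjusted p = 0.00833).

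Targets of NF-kB gave 4 higher and 2 lower of 11 tested, with a median of 0.18. Tnf was at 0.68 and Nfkbia at 0.44, while Icam1 was at -0.68 and Bcl3 at -0.40. In cells of 5000 to 20000 UMIs 0 were higher and 1 lower. Of the cell death list, 5 of 16 were higher and 0 lower. Tnfsf10, the death ligand TRAIL, stood at 0.185, 0.238, 0.205, 0.238 and 0.171 against 0.0337, 0.0371, 0.0410, 0.0506 and 0.0414 UMIs per 10000, without overlap (2.37 ± 0.18 SE, adjusted p = 1.85e-06). Casp4, Casp1 and Casp12 rose by 0.90, 0.76 and 0.76. Bax was at 0.09 and did not pass.

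Cell-cycle genes were lower in interferon-high cells. Of 20 tested, 0 were higher and 19 lower, with a median of -1.18 on the log2 scale. Top2a, which untangles replicated DNA, stood at 0.107, 0.383, 0.205, 0.357 and 0.367 UMIs per 10000 against 0.622, 0.634, 0.654, 0.999 and 0.920, without overlap (-1.42 ± 0.15 SE, adjusted p = 5.76e-05). Mcm6, of the replicative helicase, stood at 0.0194, 0.0827, 0.0698, 0.155 and 0.0634 against 0.299, 0.280, 0.284, 0.321 and 0.362 (-1.86 ± 0.23 SE, adjusted p = 0.000178), and Rrm2, of the enzyme that makes deoxynucleotides, at 0.0486, 0.0931, 0.118, 0.321 and 0.127 against 0.645, 0.689, 0.576, 0.532 and 0.639 (-1.94 ± 0.26 SE, adjusted p = 0.000343). The proliferation marker Mki67 was at -1.04 ± 0.17 SE, adjusted p = 0.00109. Cdc6 and Ccne2 had the smallest fold changes, -2.48 and -2.10, and both lost the call without stored 10x, as Cdc6 did without BD 2. Aurka was at -0.59 ± 0.27 SE, adjusted p = 0.176 and did not pass. The median stayed below 0 in every alternative, while the calls did not: 9 of 20 were lower at the epithelial gate of 30 per 10000, 8 of 20 without the library block and 0 of 10 in cells with no UMI of the immune marker lists, where 164 interferon-high cells and a median of -0.28 were left.

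Some milk protein genes fell as well. Csn2, which encodes beta-casein, stood at 0.214, 0.279, 2.31, 1.29 and 4.89 UMIs per 10000 against 12.9, 12.1, 13.9, 12.8 and 6.98, without overlap (-3.07 ± 0.54 SE, adjusted p = 0.00214). Wap, whey acidic protein, stood at 0.729, 0.734, 0.549, 0.844 and 0.463 against 3.93, 2.63, 2.42, 2.41 and 1.80 (-1.92 ± 0.11 SE, adjusted p = 1.19e-07). Csn1s1 was at -1.93 ± 0.32 SE, adjusted p = 0.00148 and was as high in the interferon-high cells of BD 2 as in the others. Other milk genes did not pass: Csn3 stood at 132, 128, 169, 198 and 199 against 134, 154, 151, 177 and 176 (0.09 ± 0.05 SE, adjusted p = 0.285) and Lalba, alpha-lactalbumin, at -0.14 ± 0.06 SE, adjusted p = 0.13. The fall rests on few cells, since 302 of the 10409 other epithelial cells held 90% of the Csn2 UMIs of that set. At the 90th percentile of the score Csn2 was at -1.24 and not called (adjusted p = 0.106). Of the 14 genes of the alveolar and progenitor list, 2 were higher (Kit at 0.33 and Trf at 0.29) and 4 lower, the last being Krt19 (-0.60).

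Of the genes called and lower in all 5 libraries, the 10 that fell most were mostly of low level. Lrrc8c, a subunit of volume-regulated anion channels, had 0 UMIs in interferon-high cells and 199 in the others, which makes it at least 3.06-fold lower against a floor of 3 counts over all interferon-high cells, and it was not called in 4 of the 5 fits that left out a library. Glycam1, a mucin-like milk protein, stood at 0.0194, 0, 0.0392, 0.0155 and 0.0190 against 1.32, 1.06, 1.25, 0.657 and 0.590 UMIs per 10000 (-5.42 ± 0.20 SE, adjusted p = 1.43e-09), and 59 of the other epithelial cells held 90% of its UMIs. Mup5, a major urinary protein with near-identical relatives, was at -4.39 and uncertain. Its fall also rests on few cells, since 8 of the other epithelial cells held 90% of its UMIs. In BD 2, 1 cell did. Fabp3, a fatty acid carrier, had 1 UMI in interferon-high cells and 1060 in the others, a ratio of 0.0204 (exact 95% interval 0.000517 to 0.114, counting error). Aunip (ratio 0.0556, 0.00141 to 0.312), Gm45902 (0.0866, 0.00218 to 0.487) and Fbp2 (0.102, 0.00257 to 0.575) also had 1 UMI, and Mum1l1 (0.0735, 0.00888 to 0.267) and Orc1, of the replication origin complex (0.114, 0.0138 to 0.415), had 2. Over the 5 fits that each left out a library, Fbp2 lost the call in all 5, Gm45902 in 3, and Mum1l1 and Orc1 in 2 each.

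Among the 20 largest increases seen in all 5 libraries, 2 genes outside the interferon lists rested on few cells. Rhox5, a homeobox gene of the reproductive tract, was at 5.07 ± 0.55 SE, adjusted p = 5.47e-05 from 88 UMIs in 9 interferon-high cells. Of these UMIs, at least 90% lay in 5 cells. In fresh 10x 1 and in fresh 10x 2, Rhox5 had 1 UMI in interferon-high cells and 1 in the others. Apof, an apolipoprotein, was at 4.49 ± 0.41 SE, adjusted p = 1.36e-05 from 53 UMIs in 35 cells. Also among the 20 were Apol9b (4.67) and Apol9a (4.37), a pair of paralogs with uncertain separate values, Gm4951 (4.58) and F830016B08Rik (4.16).

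Epithelial markers, of which Krt8, Krt18 and Epcam set the gate, differed little. Epcam, an adhesion molecule, stood at 21.9886, 19.5, 17.4, 17.6 and 19.3 against 21.1, 18.9, 16.3, 16.7 and 16.7 UMIs per 10000. Of the 5 luminal markers outside the gate, Cdh1 and Cldn3 were higher, by 0.27 and 0.27, and Krt19 lower. Neither increase was called at the gate of 30, in cells of 5000 to 20000 UMIs, in the top 2.5% of scores, in cells with no immune-marker UMI or without the library block. Genes that mark subsets of these tumour cells gave 6 higher and 1 lower of 14. Ly6a, or Sca-1, stood at 0.486, 0.496, 0.837, 1.61 and 1.08 against 0.347, 0.342, 0.487, 0.710 and 0.337 (1.05 ± 0.14 SE, adjusted p = 0.000339), and Ly6e at 22.4, 25.4, 30.7, 63.3 and 55.7 against 13.8, 14.7, 17.8, 33.0 and 28.6 (0.88 ± 0.05 SE, adjusted p = 8.74e-08). Both are Ly6 family genes known to respond to interferon. Ly6d (0.97), Tspan8 (0.89), Npy (0.97) and Foxi1 (0.56) were also higher. Npy was not called with DESeq2 (0.79, adjusted p = 0.392). Wif1, a secreted Wnt inhibitor, stood at 0, 0.0103, 0.0262, 0.0155 and 0.00634 against 0.0770, 0.0423, 0.128, 0.106 and 0.205, without overlap (-3.05 ± 0.36 SE, adjusted p = 0.000129). Basal and hormone-sensing genes gave 2 higher (Mylk at 1.36 and Prom1 at 0.42) and 1 lower of 10, Areg (-1.66). Lcn2 and Cp, of the acute phase list, were the 2 higher of 11, by 0.33 and 0.57. Over all genes tested, 7.02% were higher and 8.29% lower, and these short lists were not tested against those shares.

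Genes induced by tissue dissociation also rose. Of 10, 9 were higher, between 0.32 and 0.49 on the log2 scale over all 10. Fos stood at 56.4, 45.7, 41.4, 38.2 and 33.8 against 38.5, 40.1, 32.7, 30.6 and 27.5 UMIs per 10000, with overlapping sets (0.39 ± 0.05 SE, adjusted p = 0.000243), and Atf3 at 0.49 ± 0.10 SE, adjusted p = 0.00462. Only 1 of 10 was called in cells of 5000 to 20000 UMIs, 0 without the library block and 0 in cells with no immune-marker UMI, where the median was -0.02.

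Levels outside the rule changed in steps with the score. In fresh 10x 1, summed antiviral effectors stood at 16.5 UMIs per 10000 in cells with no rule-gene UMI, 20.6 in cells up to the 90th percentile, 38.8 between the 90th and 95th, 56.3 in the rest of the interferon-high cells and 90.1 in the top 2.5% of scores. In BD 2 the same bands held 14.2, 17.7, 32.7, 51.3 and 84.8. The increase from each band to the next was seen in all 5 libraries for the effectors, for the sensors and for the GTPases. GTPases in BD 1 went from 0.672 through 1.20, 2.55 and 5.82 to 15.7. MHC class I went from 36.2 to 124 over the bands of fresh 10x 1. For fresh 10x 2, its band between the 90th and 95th percentile (89.6) lay above the next (85.7). Cell-cycle genes were lowest in the top 2.5% of scores in the 3 10x libraries, at 0.498, 0.844 and 1.63 against 9.56, 11.9 and 9.41 in cells with no rule-gene UMI. In BD 1 they rose again, from 3.29 to 5.64, and in BD 2 they went from 2.92 below the 95th percentile to 6.75 and 3.09. These bands were cut from the score and are given without a test.

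**Figure D4:**
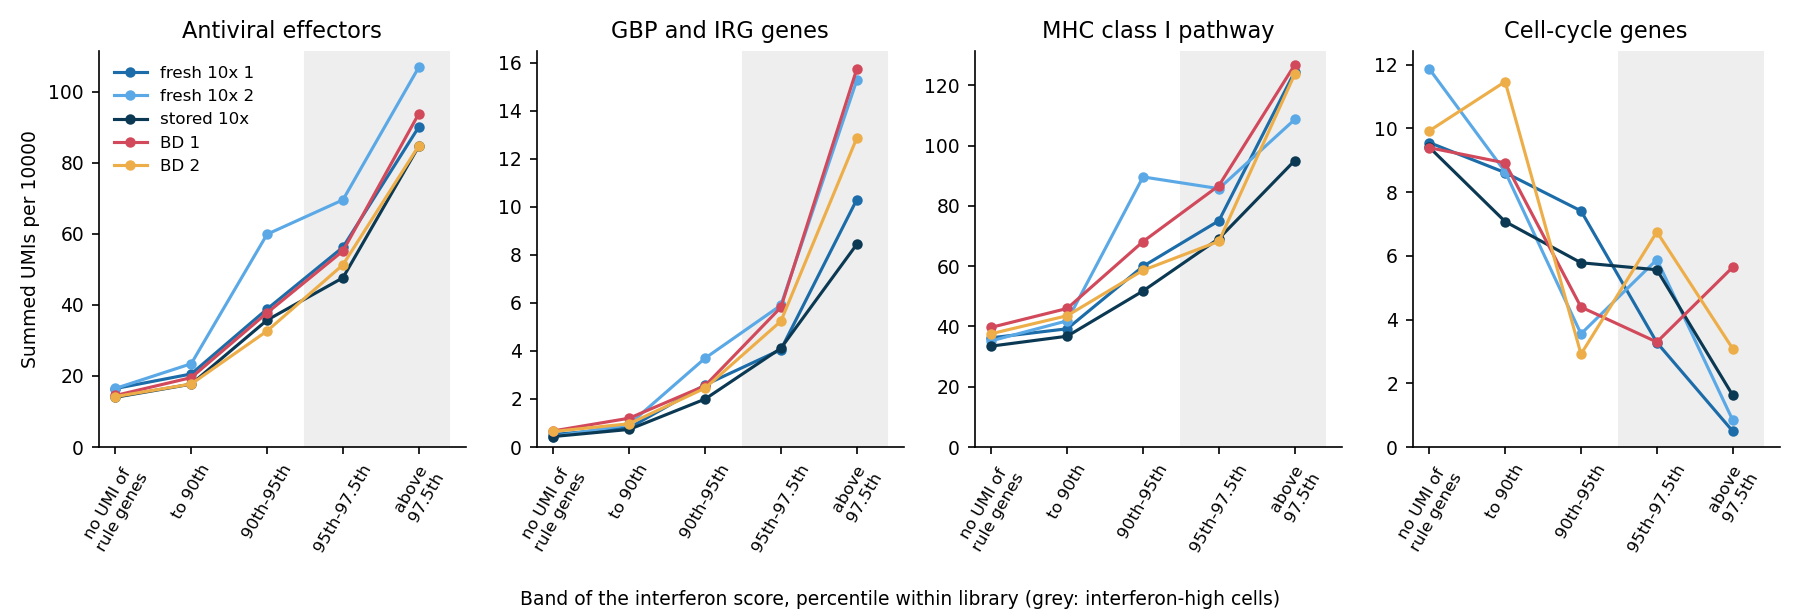
Summed UMIs per 10000 of 4 gene lists over bands of the interferon score in each library, from cells with no UMI of the rule genes to the top 2.5% of cells. Grey marks interferon-high cells. Effectors and GTPases increase from band to band in all 5 libraries, and cell-cycle genes are lowest in the top band of the 3 10x libraries alone.

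Markers of other cell types did not pass the test in either direction for macrophages (9 tested), fibroblasts (6), T cells (3), NK cells (2) and endothelial cells (3). Summed macrophage markers stood between 0.238 and 0.693 UMIs per 10000 in interferon-high cells and between 0.187 and 0.991 in the others. Dendritic markers stood between 0 and 0.0253, with Flt3, Xcr1, Clec9a, Ccr7 and Cd209a at 0 in all libraries, and B markers between 0 and 0.00972, with Cd79b at 0 in all libraries. T markers ran from 0.00634 to 0.233 against 0.0276 to 0.107 in the others, with Cd4 at 0, and 1 cell held 95.6% of those of BD 1. In the same way 1 cell held 92.3% of the NK marker UMIs of fresh 10x 1, and 52.2% and 51.5% of the macrophage marker UMIs of stored 10x and BD 2. Fibroblast markers were higher in interferon-high cells of BD 1 (10.3 against 2.90) and stored 10x (6.93 against 3.51), and 1 cell held 84.7% and 69.6% of those UMIs. Of the neutrophil list S100a9 was lower (-2.88 ± 0.54 SE, adjusted p = 0.00336), from 4 UMIs in interferon-high cells, and was not called without fresh 10x 1 (adjusted p = 0.0647). Notch3 of the mural list (0.41) and Kit of the mast list were higher, with Cspg4 and Des, and Cpa3, Tpsb2 and Fcer1a, at 0. Doublets were not called, and their part in the result was not tested. In cells with no UMI of the 6 immune lists, 34 of 35 tested effectors, 16 of 21 class I genes and 8 of 8 GTPases were higher. That limit left 3228 of 10959 epithelial cells, 164 of them interferon-high. It does not cover fibroblast markers and is no test for doublets.

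Interferon-high cells were set beside other cell types of the same tumours, gated on summed markers. Effectors and sensors together stood at 79.0, 95.3, 70.9, 85.4 and 76.8 UMIs per 10000 in interferon-high cells. In macrophages, gated at 10 C1q UMIs per 10000, the level was 32.6 to 40.7. In fibroblasts, gated at 50 collagen UMIs, it was 49.4 to 68.7, and in endothelial cells, gated at 10 (13 cells in BD 2), it was 54.6 to 63.8. The interferon-high cells were higher in 5 of 5 libraries against each, by 1.21 ± 0.19, 0.41 ± 0.30 and 0.44 ± 0.17 on the log2 scale (mean ± SD, n = 5, exact sign-flip permutation p = 0.063 for each, the smallest that 5 libraries allow, two-sided). For H2-K1, H2-D1 and B2m together the interferon-high cells stood at 63.2, 61.7, 50.03, 72.0 and 62.2. Macrophages stood at 51.3 to 77.0 and were higher in 5 of 5 libraries, with a log2 difference of interferon-high minus macrophages of -0.12 ± 0.11 (exact sign-flip permutation p = 0.063, n = 5). Fibroblasts (19.9 to 30.7) and endothelial cells (35.3 to 52.2) were lower in 5 of 5. Over the 6 tests the adjusted p-values were all 0.063. These gates were set after the files had been seen, and the high level of interferon genes is in part fixed by the rule. The other classes were taken whole and not by their top scores. The tests therefore cannot decide whether interferon response differs between the cell types. The 6 rule genes themselves summed to 17.7 to 33.1 UMIs per 10000 in interferon-high cells, which they chose. They summed to 1.74 to 2.84 in macrophages, 1.30 to 2.70 in fibroblasts and 0.607 to 2.64 in endothelial cells.

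**Figure D5:**
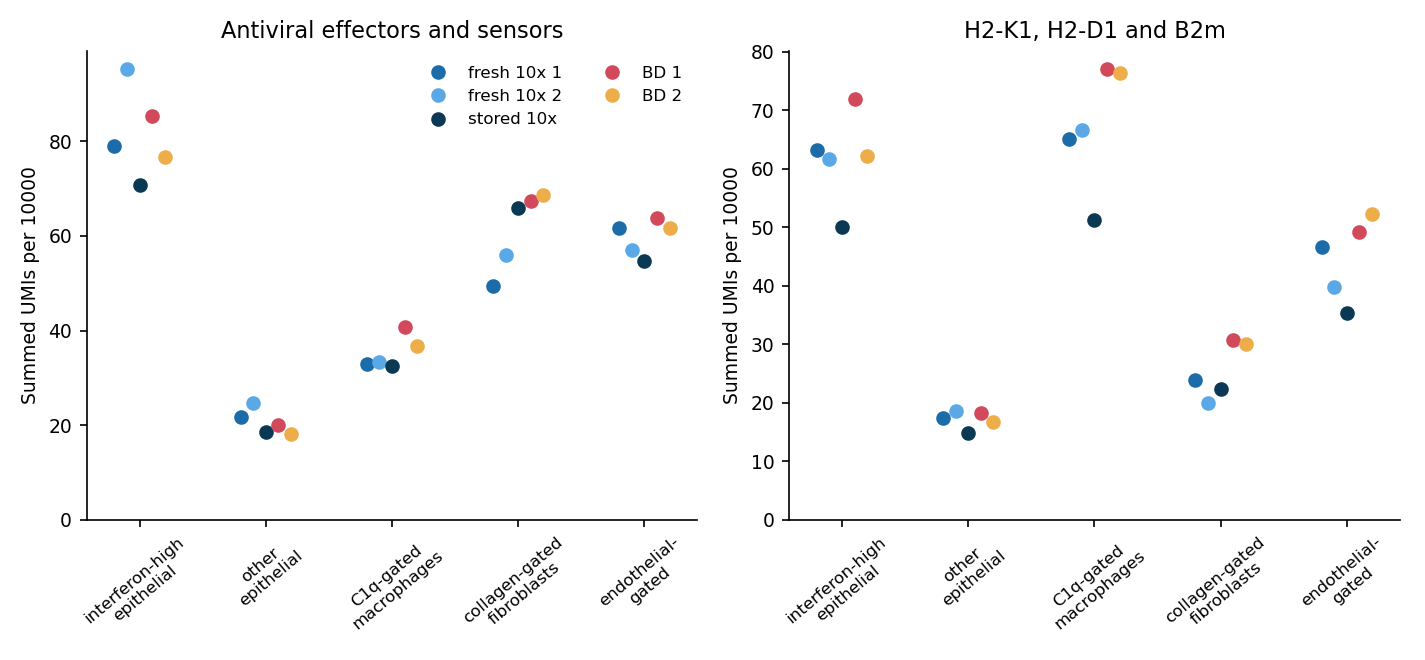
Summed UMIs per 10000 in interferon-high epithelial cells, other epithelial cells and 3 gated cell types of each library. The 3 gated cell types were not selected by score. Left, antiviral effectors and sensors, where interferon-high cells run from 70.9 to 95.3 and lie above every other class. Right, H2-K1, H2-D1 and B2m, where they run from 50.03 to 72.0, near the macrophages.

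Few genes differed between platforms in their difference between interferon-high and other epithelial cells. A test of the interaction called 2 of 12625 genes (0.0158%) with edgeR at an adjusted p under 0.05, 3 with DESeq2, and 580 at an unadjusted p under 0.05. Cdkn1a, the cell-cycle inhibitor p21, stood at 2.47, 2.23, 1.49996, 0.761 and 0.982 UMIs per 10000 in interferon-high cells and at 0.810, 0.766, 0.548, 0.752 and 0.687 in the others. It was higher in all 5 libraries, by more on 10x, where the sets did not overlap, than on BD Rhapsody. The difference of log2 fold changes (BD minus 10x) was -1.29 with edgeR (adjusted p = 0.0397). The share of cells with a Cdkn1a UMI was 38.6%, 34.7%, 34.2%, 26.8% and 27.3% against 36.5%, 34.7%, 24.7%, 29.7% and 24.4%. In interferon-high cells, 90% of its UMIs lay in 13, 11, 25, 21 and 23 of 70, 72, 149, 127 and 132 cells. In the others, 90% lay in 307, 289, 455, 408 and 373 of 1326, 1358, 2822, 2401 and 2502 cells. The unnamed transcript 2310057J18Rik stood at 2.89, 2.74, 1.33, 2.67 and 2.19 against 7.45, 5.72, 2.45, 1.54 and 1.82, lower on 10x and higher on BD Rhapsody (1.62, adjusted p = 0.0269). Platform and tumour digest cannot be told apart, since no digest is labelled as run on both. None of B2m, Rsad2, Iigp1 and Top2a passed, with differences of 0.21, 1.10, 0.33 and 0.09.

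Depth was compared between the sets as well. The median UMIs per interferon-high cell were 11175, 11576, 10892, 13326 and 9819, lower in 5 of 5 libraries by 886 ± 526 (mean ± SD, n = 5, exact sign-flip permutation p = 0.063, two-sided). At the epithelial gate of 30 they were lower in 3 libraries and higher in 2 (exact sign-flip permutation p = 0.375, n = 5). Ribosomal protein genes took 17.9%, 16.8%, 19.7%, 10.9% and 10.99% of the UMIs of the median cell, lower in 5 of 5 by a mean of 1.32 percentage points (SD 0.875, exact sign-flip permutation p = 0.063, n = 5). The median mitochondrial share was 5.65%, 9.41%, 6.88%, 14.6% and 18.1%, lower in 4 of 5 libraries (exact sign-flip permutation p = 0.5625, n = 5). Genes detected per cell at 2000 UMIs differed by -5.64 ± 8.64 (exact sign-flip permutation p = 0.1875, n = 5). The part of these measures in the gene results was not tested beyond the limits on depth and mitochondrial share.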

How the data were processed

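Single cells of PyMT mouse mammary tumours were measured in 5 libraries. The deposited matrices hold raw UMI counts per gene and cell, made by the authors with cells already selected; Cell Ranger 3.0.1 and mm10 are listed per the submitters' processing notes, with no role for each platform, and the counting of the BD Rhapsody libraries is not given there. Counts of gene rows with the same name were added. The fresh 10x matrices list 42562 genes, with minima of 103 and 102 UMIs per cell. Those of stored 10x, BD 1 and BD 2 list 32845 genes, with minima of 1029, 2577 and 1776. The lists were merged to 41028 names, and a gene missing from a matrix counted as 0. The interferon-high cells and all gene lists were chosen with earlier results of these data known. UMIs were summed over interferon-high and over other epithelial cells of each library, giving 10 sums, and tested with edgeR 4.0.16 in R 4.3.3 (TMM, filterByExpr with a minimum count of 10, quasi-likelihood test, library as block, Benjamini-Hochberg adjustment over all genes tested, threshold 0.05), after a run on simulated data. Members and other cells share a library, which is where the pairing comes from. A second fit added the interaction of class and platform. Each SE of a log2 fold change was back-calculated, as its absolute value over the square root of the quasi-likelihood F statistic. Single values per library were compared by an exact sign-flip permutation test. DESeq2 1.42.0 served as an alternative. Intervals used scipy 1.17.1 and cover counting error only, since cells of a library are no replicates. Levels are UMIs per 10000.

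Genes named are the rule genes, the 20 called genes with the largest and the 10 with the smallest fold change that had the same direction in all 5 libraries, and, of each list, those that passed if 5 or fewer, otherwise the 4 with the largest change, plus up to 3 that did not pass. Other genes named were chosen after their values were seen. Promoters were available for 78.7% of the tested genes and 77.7% of the higher ones, under the 80% needed, so a comparison of motif shares between them is void. No doublet caller was run. Alternatives were the gate, the percentile, depth, mitochondrial share, markers of other cell types, filter, scaling, block and leaving out each library. A few genes of the lists are not reported here by name.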

Additional observations from a re-analysis of the deposited data

Results flagged for a closer look

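The difference between interferon-high and other epithelial cells itself differed between platforms for 2 genes, by the interaction term of edgeR's quasi-likelihood test over 12625 genes. In interferon-high cells, 90% of the Cdkn1a UMIs lay in 13, 11, 25, 21 and 23 cells by library. In the others, 90% lay in 307, 289, 455, 408 and 373 of 1326, 1358, 2822, 2401 and 2502 cells. The platform difference of Cdkn1a was -1.29 on the log2 scale (BD minus 10x, adjusted p = 0.0397). The call was not made without fresh 10x 1, stored 10x or BD 1 (adjusted p = 0.203, 0.0768 and 0.359), and the differences were then -1.26, -1.35 and -1.05. The platform difference of 2310057J18Rik, a transcript with no assigned name, was 1.62 (adjusted p = 0.0269). It was not called without fresh 10x 1 (1.48, adjusted p = 0.104) or BD 1 (1.33, adjusted p = 0.281), and at the 90th percentile of the score the difference was -0.065.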

How the results depend on the processing

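Of 99 named genes called, 46 were called with the same sign under every alternative that tested them. Against 886 higher and 1046 lower genes, the epithelial gate of 30 gave 466 and 357, cells of 5000 to 20000 UMIs gave 431 and 223, and cells with 0 UMIs of the immune markers gave 146 and 21, with 350, 318 and 164 interferon-high cells. No filter on low counts gave 1621 lower. Leaving the neutrophil list out of the immune markers, chosen after seeing the data, gave 549 lower. DESeq2 gave 861 and 781. Without the replicate block, that is without pairing by library, 169 genes were higher and 121 lower. Leaving out 1 library gave 601 to 899 higher and 680 to 912 lower, the lowest counts both without stored 10x. The cause of these shifts was not tested. The fits with no filter and with no block used the same cells as the main fit.

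The platform difference, 2 genes with edgeR, gave 121 with no filter, 10 with the top 2.5% of scores, 6 in cells of 5000 to 20000 UMIs, 6 with the neutrophil list left out and 1 with cells under 10 per 10000 of the fibroblast markers (the latter pair chosen after seeing the data). It gave 0 at the 90th percentile, 0 at the gate of 30 and 0 with no immune-marker UMI, where 451, 629 and 301 genes had an unadjusted p under 0.05 with edgeR. DESeq2 was not run on those cells. Leaving out 1 library gave 1 to 5: 1 without fresh 10x 1, 1 without BD 1, 4 without BD 2 and 5 without fresh 10x 2.

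The share of epithelial cells with rule genes after thinning to 3000 UMIs was 7.89%, 12.9%, 6.01%, 6.18% and 5.50% for at least 2 genes. At 2000 UMIs, for at least 3, it was 2.17%, 5.76%, 1.74% and 2.09% in fresh 10x 1, fresh 10x 2, stored 10x and BD 2. Fresh 10x 2 was highest in each.

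Among genes called in at least 1 of the fits compared, directions that turned were those of S100a9 at the 90th percentile (0.25), H2-Ab1 with the top 2.5% (-1.19), Ccl7 at the gate of 30 (-0.79) and Tnf in cells of 5000 to 20000 UMIs (-0.017). With 0 immune-marker UMIs these were Atf3 (-0.0015), Fos (-0.057), Irf1 (-0.039) and Nfkbia (-0.31). The platform difference of 2310057J18Rik turned at the 90th percentile (-0.065) and with 0 immune-marker UMIs (-1.09). Differences that passed in neither fit also changed sign for some genes, such as Cxcl10 with the top 2.5% (-1.97), H2-Ab1 with DESeq2 (-0.86), and Ifitm1 (0.16) and Cd74 (0.14) at the 90th percentile. Leaving out 1 library moved H2-Ab1 between -1.06 without BD 2 (adjusted p = 0.0337 with edgeR) and 0.56 without BD 1. The cause was not tested. Depth limits the genes with few UMIs in interferon-high cells.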
